A study of Mus musculus with 12 samples.

Results

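The comparison described here sets white adipose tissue (WAT) of wild-type (WT) mice on a high fat diet (HFD) against that of WT mice on regular chow. Its members are the 6 arrays of 12 whose titles name a wild-type control, 3 on each diet, and the question is what 12 weeks of a high fat diet did to gene expression when Ahnak was intact. All mice were male and 18 weeks old, in weight-matched groups. The high fat diet held 60% fat, 20% carbohydrate and 20% protein, and chow was the control diet. The other 6 arrays were from Ahnak knockout (KO) mice on the same diets. The strain, the fat depot, the time of day of collection and whether each array was a separate animal are not stated in the labels. The p-values therefore measure only the spread between these arrays, which may be technical. RNA was read on Affymetrix whole-transcript arrays, and each value is a log2 intensity, on which a difference of 1 is a 2-fold change.

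White adipose tissue stores triglyceride in adipocytes and secretes hormones such as leptin and adiponectin. It also holds blood vessels, fibroblast-like progenitors and immune cells. In obesity, macrophages gather around failing adipocytes and digest their lipid in lysosomes, collagen is laid down around enlarging cells, and the enzymes that make fatty acids from sugar are held down by dietary fat. In whole tissue, fewer cells of a type and less RNA per cell cannot be told apart, and neither can more cells and more RNA.

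The labelled tissue was checked against its markers first. The adipocyte hormone Adiponectin (Adipoq) read 13.13, 13.10 and 13.16 in chow replicates 1, 2 and 3, and 13.13, 12.45 and 12.99 in the HFD replicates. The fatty acid binding protein Fabp4 lay between 13.09 and 13.20 on all 6 arrays, against a highest value of 14.25 anywhere in the table. Both genes stood near the top of the scale on either diet, and neither passed the test. The epididymal lipocalin Lcn5 lay between 4.46 and 4.66. Ahnak itself did not differ between the diets in WT, with a difference of -0.03 ± 0.13 (SE, n = 3 per group, adjusted p = 0.91).

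Of 19937 genes tested with limma, 4802 differed between the diets at an adjusted p under 0.05, which is 24.1% of the genes tested. Of these, 2345 (11.8% of the genes tested) were higher on HFD and 2457 (12.3%) were lower. The change exceeded 2-fold for 491 rises and 445 falls, and 8-fold for 17 rises and 25 falls. The 3 arrays of one diet lay wholly above or below those of the other for 38.8% of all genes, 17.3% higher and 21.6% lower. When each array was centred on its own median, 68.8% of the calls were rises, against 48.8% in the values as deposited. The split between rises and falls therefore moved with the scaling, and the centring raised the median difference over all genes from -0.03 to 0.07.

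The 3 HFD arrays did not stand equally far from the chow arrays, and the cause was not tested. On the first principal component of the 6 arrays, which held 74.5% of the variance, the chow replicates stood at -27.3, -38.5 and -32.5 and the HFD replicates at 13.1, 48.9 and 36.3. HFD replicate 1 was thus the nearest to chow and HFD replicate 2 the farthest. Among the 4802 called genes, HFD replicate 1 was the HFD array nearest to the chow level for 69.1%, and HFD replicate 2 was the farthest for 60.5%. Without HFD replicate 1, 5285 genes were called, and without HFD replicate 3, 3072 were.

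**Figure D1:**
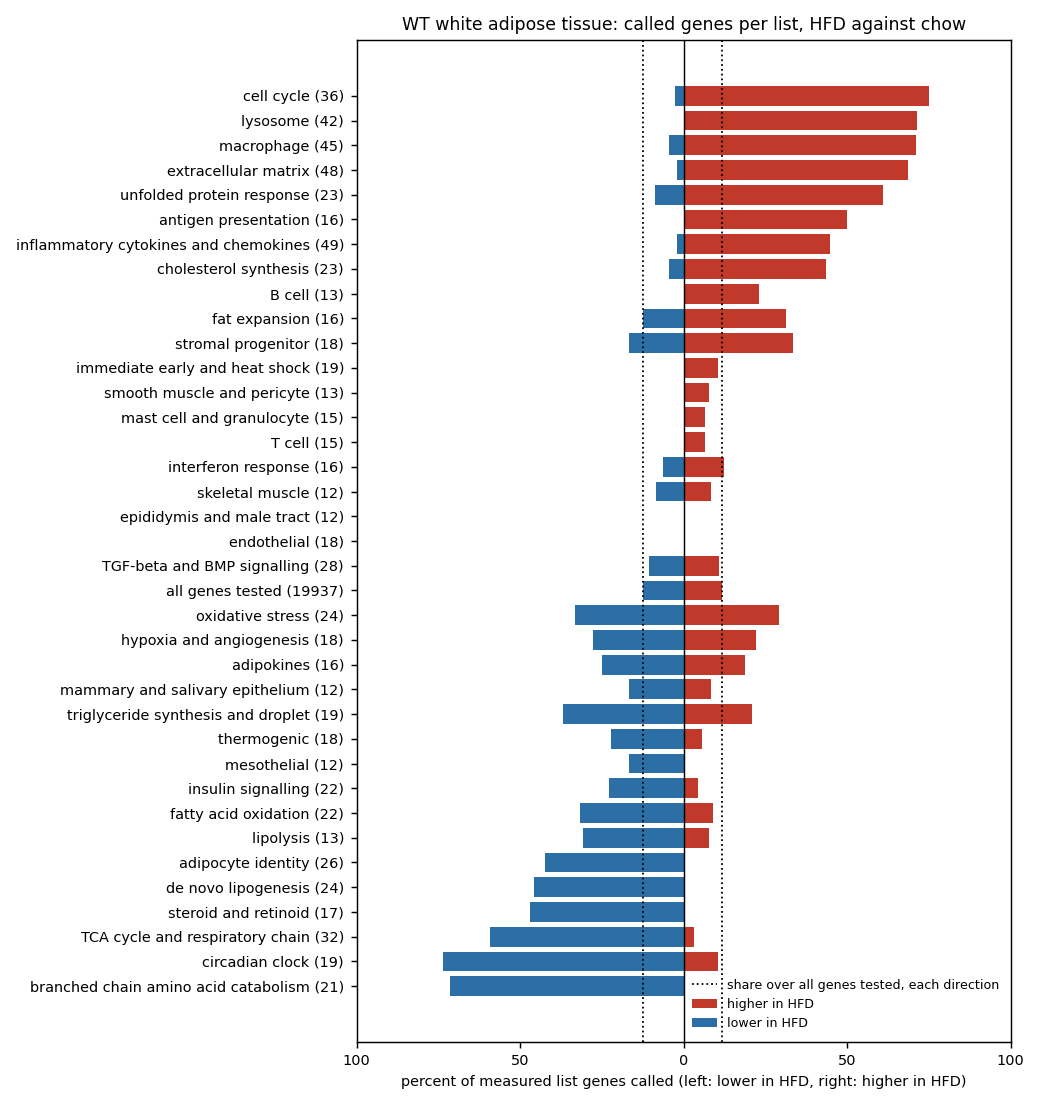
Percent of the measured genes of each list that were called higher (bars to the right) or lower (bars to the left) on HFD in WT, with the number of measured genes in brackets and the share over all genes tested as dotted lines. The cell cycle, lysosome, macrophage and matrix lists lie far to the right, the amino acid catabolism, clock and respiratory lists to the left, and the endothelial and epididymis lists have no called gene.

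Macrophage genes rose together on HFD. The members of this and the other lists were chosen with earlier results of these data known, so their counts are descriptive. Of 45 measured macrophage genes, 32 were higher, 2 were lower and 11 did not pass the test, with a median difference of 0.93 against -0.03 over all genes. The rise was seen in markers that all macrophages carry, where 15 of 16 were called higher with a median of 1.28. It was seen again in 14 of the 18 genes of lipid-laden macrophages, whose median difference was 1.78. The resident and alternatively activated macrophage genes did not follow, with 3 of 11 higher, 1 lower and a median of -0.04.

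Among the general markers, the endosomal glycoprotein Cd68 read 10.44, 9.97 and 10.03 on chow and 11.26, 12.83 and 12.37 on HFD. All 3 HFD arrays lay above all 3 chow arrays, and the difference was 2.01 ± 0.30 (SE, adjusted p = 0.0017). Adgre1, which encodes the F4/80 antigen of mouse macrophages, read 9.44, 9.05 and 9.07 on chow and 10.03, 11.73 and 11.19 on HFD, a difference of 1.79 ± 0.33 (adjusted p = 0.0036). The integrin Itgam (CD11b) differed by 1.54 ± 0.20 and the cathepsin Ctss, an elastinolytic protease of antigen-presenting cells, by 1.68 ± 0.23. In each of these genes HFD replicate 1 was the lowest HFD array.

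The lipid-laden genes included some of the largest rises in the table. Itgax, the CD11c integrin that marks macrophages recruited to obese fat, read 6.57, 6.38 and 6.74 on chow and 8.96, 11.31 and 10.61 on HFD. The lowest HFD array was above the highest chow array by more than the whole range of the chow group, and the difference was 3.73 ± 0.46, a 13.3-fold rise (adjusted p = 0.00078). Mmp12, the macrophage elastase, read 8.63, 7.17 and 8.03 on chow and 11.33, 13.002 and 12.47 on HFD, a 20.0-fold rise. Gpnmb, a glycoprotein of phagocytes with engorged lysosomes, rose 11.4-fold, and Tm4sf19, a membrane protein found in multinucleated macrophages, rose 21.7-fold. The lipid-sensing receptor Trem2 read 7.30, 7.14 and 6.86 on chow and 7.91, 10.37 and 9.63 on HFD. Its difference of 2.20 ± 0.55 had an adjusted p of 0.014, which became 0.050, 0.052 and 0.056 without chow replicate 3, HFD replicate 2 and HFD replicate 3.

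In the resident group the mannose receptor Mrc1 (CD206) rose by 0.71 ± 0.14 (adjusted p = 0.0047) and the lectin Clec10a by 0.59 ± 0.14 (adjusted p = 0.012). Timd4, a phosphatidylserine receptor of long-lived resident macrophages, moved the other way. It read 7.47, 7.44 and 7.41 on chow and 7.41, 6.32 and 6.30 on HFD, so HFD replicate 1 lay at the lowest chow value and only the other 2 HFD arrays were low. Its adjusted p of 0.049 rose to between 0.053 and 0.18 when any array but HFD replicate 1 was left out.

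**Figure D2:**
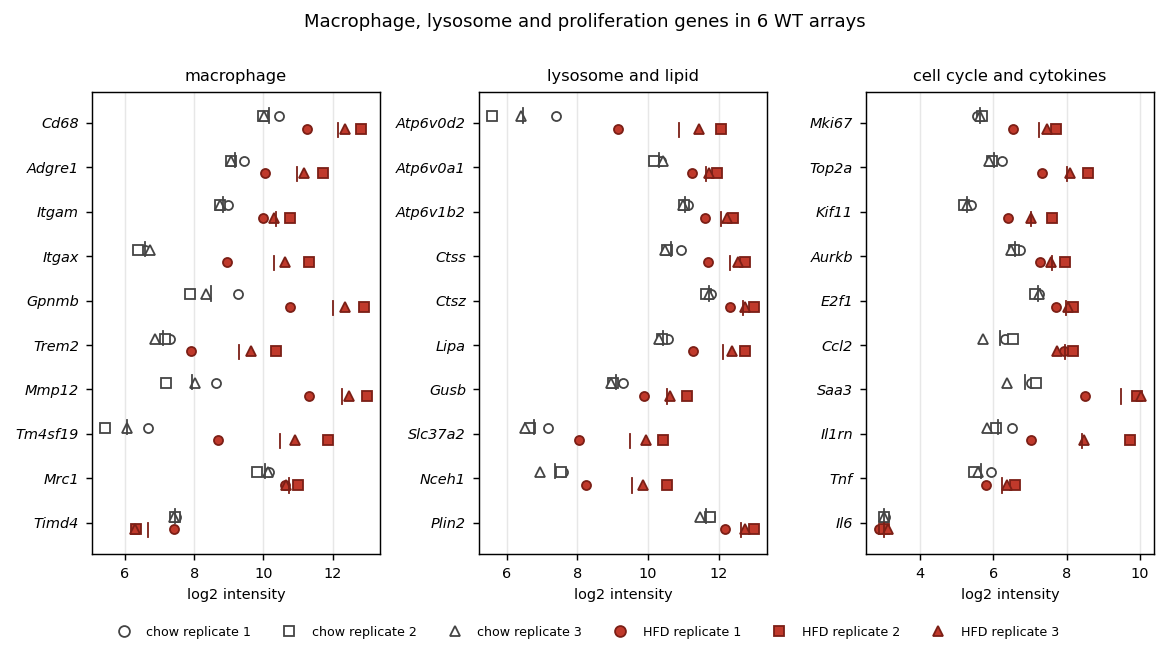
Log2 intensity (x axis) of macrophage, lysosome, proliferation and cytokine genes on each of the 3 chow arrays (open) and 3 HFD arrays (red), with vertical ticks at the group means. Itgax, Mmp12 and Tm4sf19 are shifted by 3.73 to 4.44 with no overlap, HFD replicate 1 (circle) is the red point nearest to chow in most rows, and Il6 stays near 3 on all arrays.

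Lymphoid and granulocyte markers did not share the macrophage shift. In the T cell list 1 of 15 genes was called, the cytokine receptor Il7r, which rose by 3.38 ± 0.56 (10.4-fold, adjusted p = 0.0023). The T cell receptor subunit Cd3e differed by -0.18 ± 0.13, with a 95% interval from -0.47 to 0.11. In the B cell list 3 of 13 genes were higher, namely the signalling adaptor Blnk (1.97 ± 0.45), the tetraspanin Cd37 (0.92 ± 0.22) and the lectin Cd22 (0.91 ± 0.16), while the B cell receptor chain Cd79a differed by -0.44 ± 0.22 and did not pass. In that list 3 genes were also lower without HFD replicate 1, and the rises were 1 with only the 6 WT arrays in the fit. The share of the B cell list called, 23.1%, was near the 24.1% of all genes. In the mast cell and granulocyte list 1 of 15 was called, the calprotectin subunit S100a8 at 1.08 ± 0.16. The share called was 6.67% both there and in the T cell list, below the 24.1% of all genes. With limma none of the 18 endothelial genes was called (0 higher and 0 lower at an unadjusted p under 0.05), and 2 were without HFD replicate 2. The junction protein Pecam1 differed by 0.07 ± 0.20, with a 95% interval from -0.36 to 0.50. HFD replicate 2 had the lowest mean level over the endothelial list, 8.46, against 8.81 to 9.29 on the other 5 WT arrays.

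Lysosomal genes were higher across the organelle. Of 42 measured, 30 were called higher and none lower, with a median difference of 0.54. The call held for 6 of 10 subunits of the proton pump that acidifies the lysosome, for 18 of 22 hydrolases and for 6 of 10 membrane proteins and regulators. With only the 6 WT arrays in the fit, 19 of the 42 were called. Some of these genes, such as Atp6v0d2, Ctss and Lipa, are also in the macrophage list. On HFD replicates 1, 2 and 3 the mean level was 10.35, 11.06 and 10.83 over the lysosome list. Over the macrophage list it was 10.03, 10.92 and 10.55. The part of macrophages in the lysosomal result was not tested.

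Atp6v0d2, a proton pump subunit abundant in osteoclasts and macrophages, read 7.39, 5.58 and 6.40 on chow and 9.14, 12.05 and 11.43 on HFD, a 21.4-fold rise (4.42 ± 0.68, adjusted p = 0.0018). The more widely expressed subunits moved less, Atp6v0a1 by 1.32 ± 0.17 and Atp6v1b2 by 1.03 ± 0.16. Among the hydrolases, lysosomal acid lipase (Lipa), which frees cholesterol and fatty acids from engulfed lipid, read 10.56, 10.38 and 10.30 on chow and 11.26, 12.74 and 12.38 on HFD, a difference of 1.71 ± 0.28. The glucuronidase Gusb rose by 1.46 ± 0.23 and the cathepsin Ctsz by 0.97 ± 0.14. Mitf, a transcription factor of the family that drives lysosomal genes, rose by 1.10 ± 0.16 (adjusted p = 0.0014). The sugar phosphate transporter Slc37a2, which is high in macrophages, rose by 2.69 ± 0.46. Of 6 genes of cholesterol trafficking and efflux 4 were higher and none lower, among them the cholesterol ester hydrolase Nceh1 at 2.18 ± 0.44 and the exporter Abcg1 at 1.44 ± 0.17. Of 9 lipid droplet genes 2 were higher and 2 lower, with the droplet coat protein Plin2 at 0.99 ± 0.18.

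Because these genes moved together, their promoters were searched for TCACGTGA, a palindrome at the core of the lysosomal gene element bound by Mitf and its relatives, and for the 6-letter E-box CACGTG that lies inside it. The windows were the 250 bases before each RefSeq start on GRCm38.p6, read in both directions. TCACGTGA was in a window of 5 of the 35 lysosomal genes with a window (14.3%) and of 1.25% of the 15562 tested genes with one. CACGTG was in 28.6% of the lysosomal genes and 8.12% of all. Neither was in the windows of Lipa, Gusb, Ctss, Ctsz, Atp6v0a1 or Slc37a2, which are named above among the rises. A match describes the letters and is not evidence of binding, and its link to the rises was not tested. The windows of the pump subunit Atp6v1a and the hydrolases Gla and Ctsd, the latter 2 chosen after their values were seen, are shown because they hold the palindrome, with matches in capitals. They lie at chr16:44139260-44139509 (minus strand), chrX:134601006-134601255 (minus strand) and chr7:142387828-142388077 (minus strand).
Atp6v1a: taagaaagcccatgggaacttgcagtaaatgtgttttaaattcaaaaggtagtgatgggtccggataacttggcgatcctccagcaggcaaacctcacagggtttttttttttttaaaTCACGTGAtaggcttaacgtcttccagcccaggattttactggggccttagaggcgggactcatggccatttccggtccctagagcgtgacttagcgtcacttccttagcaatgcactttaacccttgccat
Gla: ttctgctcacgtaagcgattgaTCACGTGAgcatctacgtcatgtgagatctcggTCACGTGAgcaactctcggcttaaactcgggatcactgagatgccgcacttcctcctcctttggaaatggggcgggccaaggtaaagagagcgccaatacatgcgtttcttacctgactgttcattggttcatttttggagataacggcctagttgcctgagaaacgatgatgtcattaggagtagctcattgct
Ctsd: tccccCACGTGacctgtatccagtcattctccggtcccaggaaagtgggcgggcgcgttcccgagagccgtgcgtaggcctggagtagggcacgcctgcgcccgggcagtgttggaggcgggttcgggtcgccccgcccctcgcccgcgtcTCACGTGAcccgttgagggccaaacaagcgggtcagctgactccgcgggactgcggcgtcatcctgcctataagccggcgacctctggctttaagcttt
Atp6v1a differed by 0.78 ± 0.19 (adjusted p = 0.014), with an adjusted p of 0.051 without HFD replicate 3. The alpha-galactosidase Gla differed by 1.66 ± 0.36 and cathepsin D (Ctsd) by 0.51 ± 0.13.

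Cell division genes rose, and those of mitosis did so without exception. All 19 measured mitotic genes were called higher, with a median difference of 1.40, against 6 of 11 genes of DNA replication with a median of 0.56. The proliferation marker Mki67 read 5.56, 5.69 and 5.64 on chow and 6.54, 7.71 and 7.47 on HFD (1.61 ± 0.24, adjusted p = 0.0017). Top2a, the topoisomerase that untangles replicated chromosomes, read 6.24, 5.95 and 5.90 on chow and 7.33, 8.58 and 8.09 on HFD (1.97 ± 0.26, adjusted p = 0.0010). The groups did not overlap for either gene. The spindle motor Kif11 rose by 1.73 ± 0.22, the kinase Aurkb by 1.02 ± 0.14 and the replication helicase subunit Mcm3 by 0.95 ± 0.12. Among the regulators of entry into the cycle, the transcription factor E2f1 rose by 0.76 ± 0.12 and the cyclin-dependent kinase inhibitor Cdkn2c fell by 1.05 ± 0.20 on the log2 scale. The cell type in which these genes rose was not measured, and the macrophage list rose on the same arrays, with mean levels of 9.20 to 9.51 on chow and 10.03 to 10.9 on HFD; the part of macrophages in the cell cycle result was not tested. Most of these genes are dim: when only genes above the median mean level were tested, 7 members of the list remained among the calls.

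Promoters of mitotic genes are known for CCAAT boxes and for the element TTTGAA, called CHR, so both were counted with their reverse complements ATTGG and TTCAAA in the same 250-base windows. CCAAT or ATTGG was in 13 of the 15 mitotic genes with a window (86.7%), against 38.9% of all tested genes. A high share was not particular to mitotic genes. It was 66.7% and 62.5% in the core loop and output genes of the clock, described below, and 40.0% in the lysosomal genes. TTTGAA or TTCAAA was in 6 of the 15 (40.0%), against 15.7%. The windows of Mki67, Top2a and Kif11, which hold both elements, are printed with the matches in capitals. They lie at chr7:135716380-135716629 (minus strand), chr11:99024190-99024439 (minus strand) and chr19:37376132-37376381 (plus strand).
Mki67: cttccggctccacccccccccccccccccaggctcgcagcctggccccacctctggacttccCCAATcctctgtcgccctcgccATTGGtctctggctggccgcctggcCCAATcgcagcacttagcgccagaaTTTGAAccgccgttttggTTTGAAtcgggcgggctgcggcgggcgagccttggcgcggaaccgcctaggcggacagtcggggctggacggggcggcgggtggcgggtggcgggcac
Top2a: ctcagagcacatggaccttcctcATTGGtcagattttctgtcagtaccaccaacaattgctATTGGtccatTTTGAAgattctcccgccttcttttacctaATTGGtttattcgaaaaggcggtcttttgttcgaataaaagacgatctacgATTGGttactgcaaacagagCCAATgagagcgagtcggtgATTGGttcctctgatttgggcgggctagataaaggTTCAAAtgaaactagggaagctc
Kif11: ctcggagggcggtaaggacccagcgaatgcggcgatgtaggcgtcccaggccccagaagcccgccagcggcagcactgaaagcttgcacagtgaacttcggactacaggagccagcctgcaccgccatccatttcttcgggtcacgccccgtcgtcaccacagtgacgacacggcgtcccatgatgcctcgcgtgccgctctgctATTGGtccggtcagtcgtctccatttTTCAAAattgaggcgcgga

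Signals that draw and activate leukocytes rose in part. Of 49 measured genes of inflammatory cytokines, chemokines, acute phase proteins and their receptors, 22 were higher and 1 was lower, with a median of 0.42. Receptors led, with 8 of 10 higher, followed by 6 of 17 chemokines, 5 of 14 cytokines and 3 of 8 acute phase genes. The 1 fall was the acute phase gene Lcn2, whose difference of -3.05 was larger in size than any rise in this list. Its values are given with the large falls below. The monocyte-attracting chemokine Ccl2 read 6.33, 6.54 and 5.72 on chow and 7.94, 8.17 and 7.75 on HFD. All HFD arrays were above all chow arrays, including HFD replicate 1, and the difference was 1.76 ± 0.25 (adjusted p = 0.0013). Ccl7, which binds the same receptor, differed by 1.46 ± 0.21, and that receptor, Ccr2, by 0.83 ± 0.21 (adjusted p = 0.015, and 0.060 and 0.062 without chow replicate 3 and HFD replicate 3).

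The acute phase protein Saa3 read 7.03, 7.16 and 6.37 on chow and 8.51, 9.91 and 10.03 on HFD, a difference of 2.63 ± 0.37. Il1rn, the natural antagonist of interleukin 1, rose by 2.27 ± 0.49, beside 0.46 ± 0.13 for Il1b itself (adjusted p = 0.026, and 0.064 to 0.10 without HFD replicate 1, HFD replicate 2 or chow replicate 3). The classic cytokine Tnf read 5.93, 5.47 and 5.58 on chow and 5.80, 6.59 and 6.37 on HFD, so the groups overlapped. Its adjusted p of 0.044 became 0.053 to 0.16 in the 8 fits that lost the call when 1 array was left out. Il6 lay between 2.88 and 3.15 on all 6 arrays, near the floor of the table at 2.09, and its difference had a 95% interval from -0.17 to 0.15. Antigen presentation genes rose in 8 of 16 cases, among them the class II transactivator Ciita (0.89 ± 0.17) and the costimulator Cd80 (1.01 ± 0.20); without HFD replicate 3 the count was 5. In the interferon response list 2 of 16 were higher and 1 was lower, with 4 higher without chow replicate 2 and 3 lower without HFD replicate 1. The share called in that list, 18.8%, was below the 24.1% of all genes.

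The extracellular matrix list held 33 rises and 1 fall among 48 genes, with a median of 0.76. Col12a1 (Entrez Gene 12816), a collagen that sits on the surface of fibrils, had the smallest p-value of all genes in this comparison. It read 6.06, 5.81 and 5.85 on chow and 7.64, 7.92 and 8.13 on HFD, a 3.97-fold rise with little spread within either group (1.99 ± 0.12, adjusted p = 6.0e-05). The collagen VI chain Col6a3, which is prominent in fat, read 8.89, 8.70 and 8.59 on chow and 10.10, 10.56 and 10.29 on HFD (1.59 ± 0.15). In all, 13 of 16 collagen genes were higher. The major fibrillar chains moved less, with Col1a1 at 0.83 ± 0.18 and Col3a1 at 0.70 ± 0.16.

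Matricellular proteins, which sit in the matrix and signal to cells, were higher in 10 of 15 cases. Thrombospondin 1 (Thbs1) read 8.999, 9.58 and 9.03 on chow and 12.21, 11.35 and 11.01 on HFD (2.32 ± 0.32), and here HFD replicate 1 was the highest array. Periostin (Postn) rose by 2.22 ± 0.33 and tenascin C (Tnc) by 1.502 ± 0.23. Among the enzymes that crosslink or cut matrix and their inhibitors, 10 of 17 were higher, with the inhibitor Timp1 at 2.55 ± 0.45 and the protease Adam12 at 1.78 ± 0.19. Of the ligands, receptors and mediators of transforming growth factor beta and bone morphogenetic proteins, 3 of 28 were higher and 3 lower. The share called, 21.4%, was near the 24.1% of all genes. The falls were 1 without chow replicate 3 and 5 without HFD replicate 1. Tgfb1 rose by 0.84 ± 0.17. In the stromal progenitor list 6 of 18 were higher and 3 lower, and the receptor Pdgfra, which defines these cells, differed by 0.37 ± 0.21 (adjusted p = 0.23).

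The protein folding machinery of the endoplasmic reticulum also rose, modestly. In the unfolded protein response list 14 of 23 genes were higher and 2 lower, with a median of 0.33. The chaperone Hspa5 (BiP) read 11.74, 11.91 and 11.74 on chow and 12.22, 12.30 and 12.37 on HFD (0.50 ± 0.10). Its partner Sdf2l1 rose by 1.19 ± 0.18, and Herpud1, a component of the degradation machinery, fell by 0.54 ± 0.09 on the log2 scale. Of 19 immediate early and heat shock genes, which respond to handling and stress, 2 were called. That share, 10.5%, was below the 24.1% of all genes. The 2 were the transcription factors Atf3 (3.06 ± 0.45) and Egr2 (1.81 ± 0.45, adjusted p = 0.014, and 0.057 and 0.055 without chow replicate 3 and HFD replicate 3). For Egr2 the groups overlapped, at 7.21 on chow replicate 2 and 7.12 on HFD replicate 1. The immediate early genes Fos (0.93 ± 0.36, adjusted p = 0.087) and Egr1 (-0.57 ± 0.22, adjusted p = 0.082) did not pass.

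Adipocyte genes were lower or did not pass, and none of the 26 in the identity list was called higher. Of these, 11 were lower, with a median of -0.34. Cebpa, a transcription factor that maintains the adipocyte state, read 11.11, 11.34 and 11.38 on chow and 10.89, 10.41 and 10.68 on HFD (-0.62 ± 0.13, adjusted p = 0.0060). Its partner Pparg differed by -0.37 ± 0.15 and did not pass (adjusted p = 0.11). The droplet gatekeeper Plin1 fell by 0.46 ± 0.10 on the log2 scale. The insulin-responsive glucose transporter Slc2a4 (GLUT4) read 10.54, 10.59 and 10.87 on chow and 10.23, 8.37 and 9.36 on HFD. Every HFD array was below every chow array, but the fall ranged from slight in replicate 1 to large in replicate 2 (-1.35 ± 0.33, adjusted p = 0.014, and 0.051 without chow replicate 3). The count of falls in the list was 5 without chow replicate 3, 7 without HFD replicate 3, and 5 with only the 6 WT arrays in the fit.

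Hormones and growth factors of fat moved in both directions. Leptin (Lep), which reports fat mass to the brain, read 12.01, 12.09 and 12.25 on chow and 13.002, 12.90 and 13.08 on HFD. The groups were well apart and the HFD arrays lay close together (0.88 ± 0.12, adjusted p = 0.0014). The Wnt antagonist Sfrp5 rose by 1.90 ± 0.29, while its relative Sfrp1 fell by 1.95 ± 0.31 on the log2 scale. Nampt, the enzyme that salvages NAD, fell by 0.94 ± 0.15 on the log2 scale, and the secreted factor Nrg4 by 1.62 ± 0.35. Of 16 genes linked to fat expansion, 5 were higher, 2 lower and 9 not called, with a median of 0.03, and the rises were 3 without HFD replicate 3. The rises included Bmp3 (1.21 ± 0.14) and the imprinted genes Peg3 (2.04 ± 0.36) and Mest (1.41 ± 0.36, adjusted p = 0.015, and 0.052 without HFD replicate 3). For both imprinted genes chow replicate 3 was lower than the other chow arrays, at 6.65 against 8.03 and 8.13 for Peg3 and at 10.37 against 12.00 and 12.09 for Mest.

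**Figure D3:**
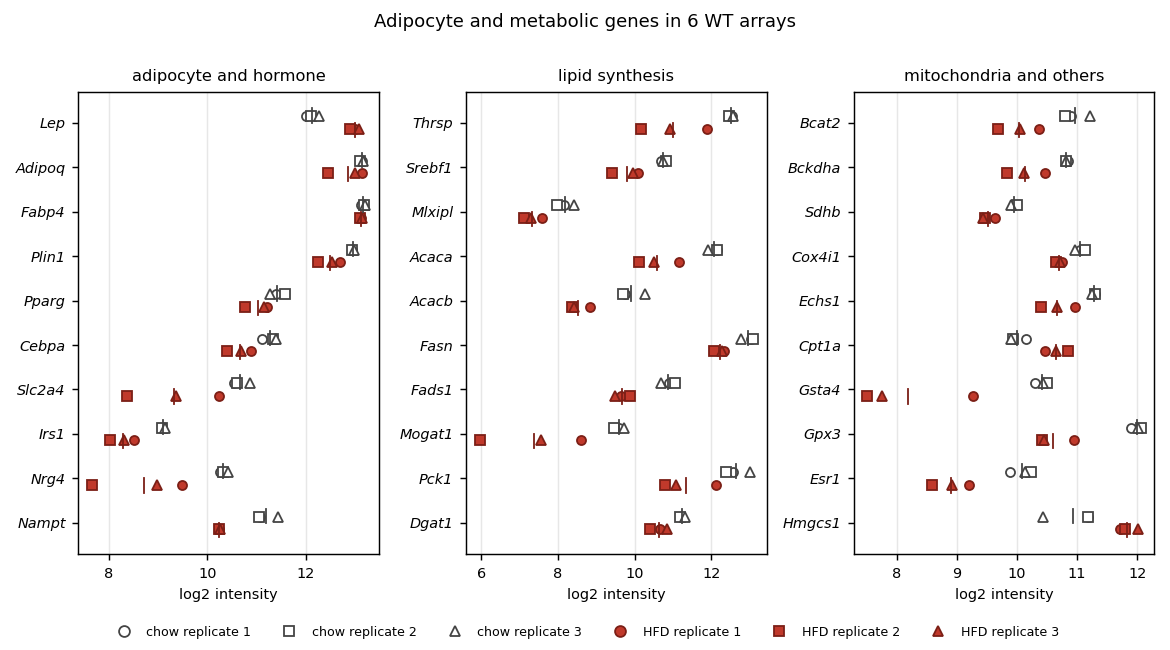
Log2 intensity (x axis) of adipocyte, lipid synthesis and mitochondrial genes on each of the 3 chow arrays (open) and 3 HFD arrays (red), with vertical ticks at the group means. Lep is higher and Slc2a4, Thrsp, Acaca and Mogat1 are lower on HFD, while Adipoq and Fabp4 lie between 12.45 and 13.20.

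Fatty acid synthesis genes fell in part. Of 24 measured genes 11 were lower and none higher, with a median of -0.56. The regulator Thrsp read 12.53, 12.47 and 12.56 on chow and 11.89, 10.17 and 10.92 on HFD (-1.53 ± 0.31). The transcription factors Srebf1 and Mlxipl (ChREBP), which switch on lipogenic enzymes, fell by 0.93 ± 0.14 and 0.85 ± 0.13 on the log2 scale. Acaca, the enzyme that commits acetyl-CoA to fat, read 12.14, 12.15 and 11.91 on chow and 11.15, 10.11 and 10.51 on HFD (-1.48 ± 0.22, adjusted p = 0.0017). Its mitochondrial counterpart Acacb fell by 1.37 ± 0.18, the desaturase Fads1 by 1.21 ± 0.15 and fatty acid synthase (Fasn) by 0.72 ± 0.15, all on the log2 scale.

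Cholesterol synthesis did not fall with it. Of the 17 genes of that pathway's enzymes, 6 were higher and 1 was lower, with Dhcr7 at 1.26 ± 0.21 and Hmgcs1 at 0.90 ± 0.18, while squalene synthase (Fdft1) fell by 0.94 ± 0.10 on the log2 scale. Over the 23 genes of the cholesterol list, efflux included, 10 were higher, and 6 without HFD replicate 3. Triglyceride and droplet genes split, with 4 of 19 higher and 7 lower. The acyltransferase Mogat1 read 9.60, 9.46 and 9.71 on chow and 8.60, 5.96 and 7.56 on HFD (-2.22 ± 0.47), and Pck1, which makes glycerol phosphate in adipocytes, fell by 1.32 ± 0.28 on the log2 scale. Dgat2, an enzyme of the last step of triglyceride synthesis, differed by -0.05 ± 0.09, with a 95% interval from -0.26 to 0.16. The triglyceride synthesis enzyme Dgat1 fell by 0.60 ± 0.11 on the log2 scale (limma adjusted p = 0.0034).

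In the branched chain amino acid pathway, which fat normally burns at a high rate, 15 of 21 genes were lower and none higher, with a median of -0.55. Its first enzyme Bcat2 read 10.90, 10.80 and 11.21 on chow and 10.36, 9.68 and 10.05 on HFD (-0.94 ± 0.15), and the dehydrogenase subunit Bckdha fell by 0.69 ± 0.13 on the log2 scale. In the tricarboxylic acid cycle and respiratory chain 19 of 32 genes were lower and 1 higher, with a median of -0.28. The succinate dehydrogenase subunit Sdhb differed by -0.44 ± 0.08 and the cytochrome oxidase subunit Cox4i1 by -0.34 ± 0.07. With arrays centred on their medians the count of falls here was 13, and 12 with only the 6 WT arrays in the fit. Fatty acid oxidation genes were lower in 7 of 22 cases, and in 3 after centring and 4 without chow replicate 1, chow replicate 3, HFD replicate 2 or HFD replicate 3 in turn. Cpt1a, which admits fatty acids to the mitochondrion, rose by 0.66 ± 0.10. Thermogenic genes had 1 rise and 4 falls among 18, a share of 27.8% near the 24.1% of all genes. There were 4 rises after centring and 3 without HFD replicate 1. Ucp1 lay between 4.44 and 4.55 on 5 of the 6 arrays and at 5.86 on HFD replicate 2.

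Insulin signalling genes were called lower in 5 of 22 cases and higher in 1, a share of 27.3% near the 24.1% of all genes. The docking protein Irs1 read 9.07, 9.08 and 9.14 on chow and 8.52, 8.03 and 8.32 on HFD (-0.81 ± 0.12, adjusted p = 0.0014), and the transcription factor Foxo1 fell by 0.94 ± 0.19 on the log2 scale. Without chow replicate 3 the count was 3. In the lipolysis list 4 of 13 were lower, led by the phosphodiesterase Pde3b, through which insulin restrains lipolysis (-0.85 ± 0.14). That count was 2 after centring and 2 without chow replicate 1, chow replicate 3, HFD replicate 2 or HFD replicate 3 in turn.

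The oxidative stress list went both ways, with 8 of 24 lower, 7 higher and a median of -0.01. The glutathione transferase Gsta4 read 10.31, 10.49 and 10.43 on chow and 9.27, 7.51 and 7.76 on HFD (-2.23 ± 0.34), Gstt1 fell by 1.66 ± 0.21 and the secreted peroxidase Gpx3 by 1.39 ± 0.21 on the log2 scale. Heme oxygenase 1 (Hmox1), which degrades heme, was among the rises (1.03 ± 0.22). None of the 17 steroid and retinoid genes was higher and 8 were lower, including the estrogen receptor Esr1 (-1.18 ± 0.18) and the cortisone-activating enzyme Hsd11b1 (-1.47 ± 0.29). In the hypoxia and angiogenesis list 4 of 18 were higher and 5 lower. The vessel-stabilising ligand Angpt1 read 8.42, 8.28 and 8.62 on chow and 6.12, 6.36 and 6.19 on HFD (-2.22 ± 0.22), while its antagonist Angpt2 rose by 1.01 ± 0.11. The 4 rises in that list became 2 without chow replicate 3 or HFD replicate 3. Adra2c, an alpha-2 adrenergic receptor, was among the 5 smallest p-values (-0.87 ± 0.07, adjusted p = 0.00037), as was the mitotic kinase Nek6 (1.26 ± 0.11).

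The clock genes shifted together. The cellular clock is a loop in which Arntl (BMAL1) and Clock switch on Per, Cry and Nr1d genes, whose products shut it off, and which drives output factors such as Dbp. Of 19 measured clock genes, 14 were lower and 2 higher, with a median of -0.56, and 3 did not pass. Both rises were in the activating arm. Arntl read 6.76, 6.46 and 6.04 on chow and 7.61, 7.83 and 7.41 on HFD (1.20 ± 0.19, adjusted p = 0.0020).

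On the repressing side Per3 read 8.68, 8.56 and 8.93 on chow and 6.96, 6.89 and 7.15 on HFD (-1.72 ± 0.16, adjusted p = 0.00042). Per2 fell by 1.13 ± 0.12 and Per1 by 0.71 ± 0.17 on the log2 scale. Among the outputs Dbp read 9.99, 10.10 and 9.92 on chow and 8.69, 8.52 and 8.71 on HFD (-1.36 ± 0.11, adjusted p = 0.00036). Its relatives Tef and Hlf fell by 1.32 ± 0.11 and 1.20 ± 0.16, and the deubiquitinase Usp2 by 1.95 ± 0.18, on the log2 scale. HFD replicate 1 was the lowest HFD array in 31 of the 32 macrophage genes that rose. For Dbp it lay between the other HFD arrays. Over the clock list the mean level was 8.66, 8.80 and 8.67 on chow and 8.17, 7.98 and 8.02 on HFD. There too HFD replicate 1 was the HFD array nearest to chow. The time of day of collection moves clock genes, is not in the labels, and its part in the result was not tested.

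The 250-base windows of the clock genes were searched for the E-box CACGTG, which the Arntl and Clock pair binds, and for the D-box bound by Dbp and Tef, taken as TTATGTAA, TTACATAA or TTACGTAA. CACGTG was in 2 of 9 core loop genes with a window (22.2%) and 3 of 8 output genes (37.5%), against 8.12% of all tested genes. A D-box was in 1 core loop gene, Per3, in 0 of 8 output genes and in 1.05% of all. The element TAGGTCA or TGACCTA, called RORE, was searched for too. It was in 0 of 9 core loop genes and 1 of 8 output genes (12.5%), against 2.31% of all. The printed windows are those of 3 falling genes that hold a match, for Tef the first of its windows, with the letters found in capitals, at chr4:151044666-151044915 (minus strand), chr11:69098699-69098948 (plus strand) and chr15:81802423-81802672 (plus strand).
Per3: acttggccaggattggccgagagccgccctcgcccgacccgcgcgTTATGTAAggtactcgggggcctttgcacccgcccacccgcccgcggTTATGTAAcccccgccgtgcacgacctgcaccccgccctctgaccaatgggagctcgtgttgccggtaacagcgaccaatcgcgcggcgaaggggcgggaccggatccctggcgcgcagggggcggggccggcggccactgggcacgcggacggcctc
Per1: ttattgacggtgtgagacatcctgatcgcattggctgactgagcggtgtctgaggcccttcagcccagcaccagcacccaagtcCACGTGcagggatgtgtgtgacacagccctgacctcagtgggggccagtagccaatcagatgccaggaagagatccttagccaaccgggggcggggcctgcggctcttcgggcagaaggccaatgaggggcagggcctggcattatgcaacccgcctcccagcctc
Tef: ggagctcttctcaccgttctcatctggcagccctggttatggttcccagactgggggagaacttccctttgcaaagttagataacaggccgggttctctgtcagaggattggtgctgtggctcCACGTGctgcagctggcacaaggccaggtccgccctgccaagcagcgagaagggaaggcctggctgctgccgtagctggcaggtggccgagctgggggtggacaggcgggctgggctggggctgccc

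**Figure D4:**
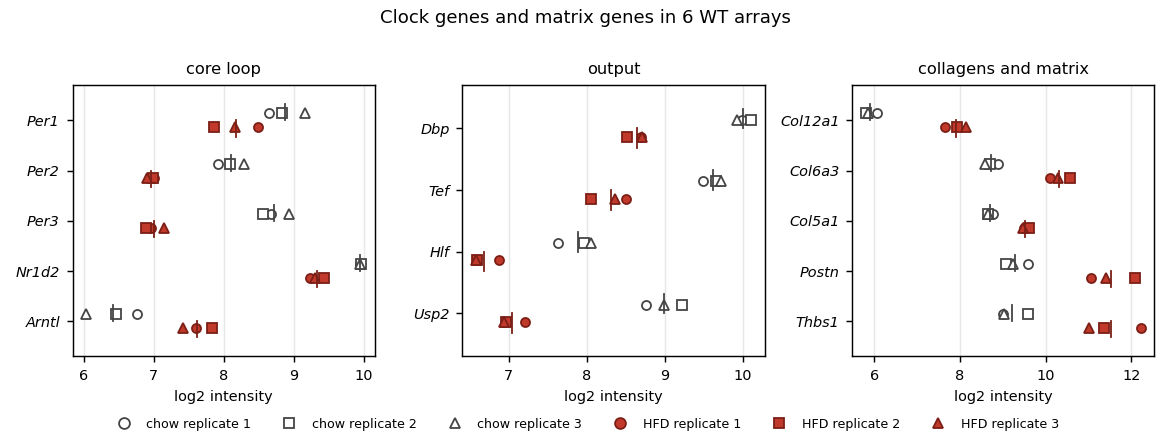
Log2 intensity (x axis) of clock genes and matrix genes on each of the 3 chow arrays (open) and 3 HFD arrays (red), with vertical ticks at the group means. Per3, Dbp, Tef and Usp2 are lower on all HFD arrays and Arntl is higher, and Col12a1 and Postn are higher with no overlap.

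The 15 largest falls formed a group of a different kind. They were Cuzd1, Dcdc2a, Bbox1, Cyp2f2, Mmp7, Iyd, Plet1, Clic6, Epcam, Kcnk1, Adcy8, ccdc198, Acsbg1, Prom1 and Cdh16, and they fell between 8.88-fold and 41.0-fold. Several encode proteins of epithelia, such as the adhesion molecule Epcam, the cadherin Cdh16, the matrix protease Mmp7 and the surface protein Prom1 (CD133). On chow they ranged from 6.77 to 11.8 and on HFD from 4.005 to 6.79, so the chow and HFD ranges of the group as a whole barely met. The medians of the 6 arrays over the table were 5.79 to 5.92.

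Cuzd1 (Entrez Gene 16433), a membrane protein with CUB and zona pellucida domains, read 10.47, 10.91 and 9.77 on chow and 5.13, 5.03 and 4.90 on HFD. All 3 HFD arrays, replicate 1 included, were at the low level (-5.36 ± 0.90, adjusted p = 0.0025). Epcam read 8.29, 9.17 and 7.96 on chow and 5.09, 5.01 and 4.95 on HFD (-3.46 ± 0.60). Chow replicate 2 was the highest array for 14 of the 15 genes, the exception being the cytochrome Cyp2f2 at 10.16, 8.86 and 11.82 on chow.

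Marker lists of candidate epithelia gave mixed values. The keratins Krt8 and Krt18 fell by 1.84 ± 0.45 and 1.61 ± 0.36 on the log2 scale (adjusted p = 0.013 and 0.0090), Krt8 with an adjusted p of 0.055 without HFD replicate 3, and E-cadherin (Cdh1) by 1.52 ± 0.30. Lipocalin 2 (Lcn2) is an iron-scavenging acute phase protein outside these marker lists. It read 11.60, 11.98 and 11.04 on chow and 7.83, 9.33 and 8.30 on HFD (-3.05 ± 0.78, adjusted p = 0.016, and 0.054 without chow replicate 2 or without HFD replicate 3). Krt8 and Krt18 were the only calls among 12 mesothelial genes. The defining mesothelial genes Msln and Upk3b differed by 0.04 ± 0.42 and -0.39 ± 0.41. The mean level of the mesothelial list was 9.07, 9.50 and 8.46 on chow and 8.99, 8.47 and 8.10 on HFD, highest in chow replicate 2 as for the large falls, and its part in them was not tested. With limma none of the 12 epididymis genes was called (0 higher and 2 lower at an unadjusted p under 0.05), and their mean level lay between 3.94 and 4.11 on all 6 arrays. Of 12 genes of mammary and salivary epithelium, Epcam and Cdh1 were lower, the basal keratin Krt14 was higher (0.98 ± 0.16), and Krt5 was at 4.81 to 5.14 throughout. The share called was 25% in that list and 16.7% in the mesothelial list, against 24.1% of all genes.

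**Figure D5:**
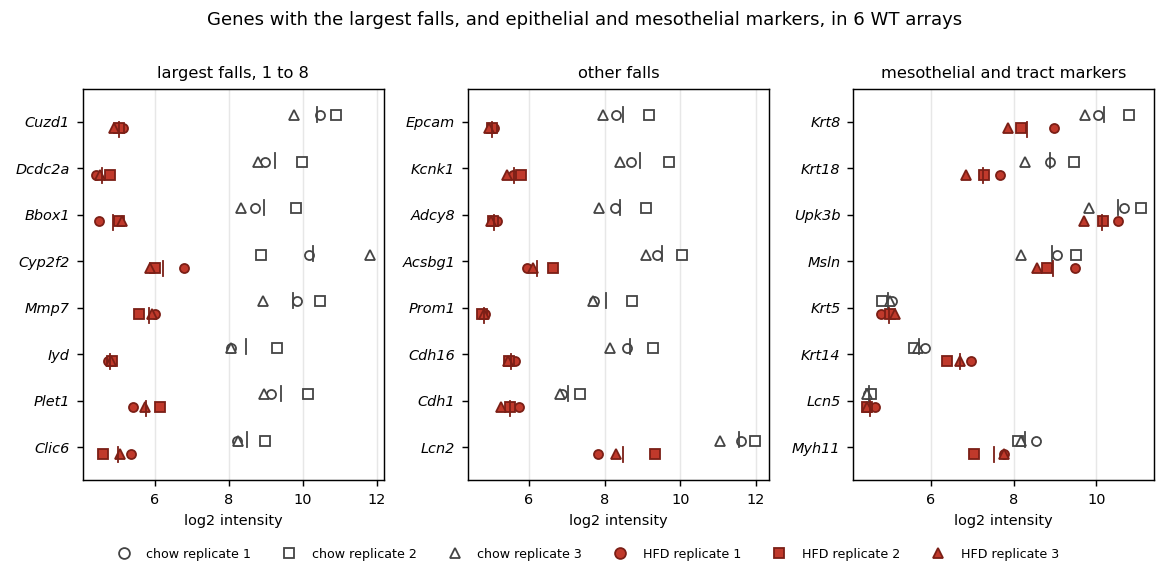
Log2 intensity (x axis) of the genes with large falls and of epithelial, mesothelial, smooth muscle and epididymal markers on each of the 3 chow arrays (open) and 3 HFD arrays (red), with vertical ticks at the group means. Cuzd1, Dcdc2a and Epcam are tight near 5 on HFD and spread between 7.96 and 10.9 on chow, and Upk3b, Msln and Lcn5 overlap between the diets.

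The 15 largest rises were Gpr50, Slc5a7, Tm4sf19, Atp6v0d2, Mmp12, Ubd, Lipf, Itgax, Rgs1, Gpnmb, Il7r, Stap1, Tnip3, Dhrs9 and Atf3, between 8.32-fold and 22.2-fold. HFD replicate 1 was the lowest HFD array for all 15, and HFD replicate 2 the highest for 11. Beside the macrophage genes they held some with other known roles. Gpr50, an orphan receptor of the melatonin receptor family, read 4.21, 4.31 and 4.26 on chow and 6.78, 9.28 and 10.14 on HFD. The choline transporter Slc5a7 read 5.87, 5.69 and 5.08 on chow and 9.20, 10.32 and 10.48 on HFD. Lipf, a lipase best known from the stomach, read 5.57, 4.59 and 4.22 on chow and 7.87, 8.54 and 9.33 on HFD. In each of these 3 genes HFD replicate 3 was the highest array.

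The same diet contrast in KO mice served as the comparison. There 1264 genes were called (6.34% of those tested), and 847 genes were called in both genotypes with the same sign, which is 17.6% of the WT calls and 67.0% of the KO calls. A further 14 were called with opposite signs. All 15 of the largest WT falls were also called in KO, with KO differences from -3.84 to -2.41. The 3 KO HFD arrays were not alike in several of them. Cuzd1 read 10.57, 9.45 and 10.55 on KO chow and 9.19, 4.92 and 4.94 on KO HFD, so KO HFD replicate 1 stayed near chow. Epcam read 7.53, 4.89 and 5.14 on KO HFD, whereas Cyp2f2 read 7.20, 6.40 and 6.46. Of the 15 largest WT rises, 1 was called in KO, Slc5a7 at 2.64 ± 0.41, and the KO differences ranged from -0.15 to 2.64. Over the macrophage list the median difference was 0.23 in KO against 0.93 in WT, over the lysosome list 0.08 against 0.54, and over the cell cycle list 0.05 against 0.92. Over fatty acid synthesis it was -0.69 in KO against -0.56 in WT.

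The difference of the diet effects was tested itself, as an interaction. It was called for 1 gene of 19937 (0.00502%), Ppfibp2, and for none of the 15 rises or falls (15 and 0 of them at an unadjusted p under 0.05). The adjusted p of the interaction was 0.062 to 0.15 over the 15 rises and 0.58 to 0.91 over the 15 falls. The rises and falls were picked by their WT difference, which is a term of this contrast. Their interaction values are therefore not independent of that choice. HFD replicate 1 was the lowest HFD array for all 15 rises, so leaving it out enlarges their WT differences. Among the fits that left out 1 array, the count of interaction calls changed most without HFD replicate 1. It was 20 without WT chow replicate 2 and 0 to 2 without any of the remaining arrays. With every array kept it was 85 among genes above the median mean level and 0 to 2 in most other settings. With array weights, whose estimation stopped before its tolerance was reached, it was 2819. Without HFD replicate 1, 2060 genes were called, including all 15 of the rises and 0 of the 15 falls. Those were 10.3% of all genes, and they covered 31 of 45 macrophage genes, 30 of 42 lysosomal genes, 24 of 36 cell cycle genes, 17 of 48 matrix genes, 15 of 21 branched chain amino acid genes, 7 of 19 clock genes and 4 of 24 fatty acid synthesis genes. Ppfibp2 (Entrez Gene 19024), a liprin-beta scaffold protein, read 6.90, 6.89 and 6.80 on chow and 7.99, 8.11 and 8.16 on HFD in WT, a tight rise of 1.22 ± 0.08 (adjusted p = 7.4e-05). In KO it differed by 0.10 ± 0.08 (adjusted p = 0.49). Its interaction was no longer called without chow replicate 1, chow replicate 3, HFD replicate 2 or HFD replicate 3 of WT, or without KO chow replicate 1, with adjusted p from 0.066 to 0.083.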

How the data were processed

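Total RNA of white adipose tissue was labelled with biotin and read on 12 Affymetrix arrays, 3 in each of 4 groups. Values are the log2 intensities that the authors deposited; affy is the tool listed in the submitters' processing notes. How background, probe sets and arrays were treated is not stated there. The table held 34760 rows, of which 21640 carried 1 gene symbol in the platform's annotation, 1321 several and 11799 none. Of the rows with 1 symbol, 21553 matched RefSeq (GRCm38.p6) by Entrez ID. For each gene the row with the highest mean over the 12 arrays was used, giving 19937 genes, 954 of which had several rows. No column was left without a sample.

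limma 3.58.1 in R 4.3.3 fitted 4 group means to all 12 arrays (lmFit and eBayes, 8 residual degrees of freedom), so the knockout arrays share in the spread. The WT diet difference, the KO diet difference and the interaction were taken as contrasts, with Benjamini-Hochberg adjustment over all genes and a threshold of 0.05. Errors are SE of a difference, and p-values are adjusted unless stated. The fit was tested on simulated data. The number of arrays limits the precision. Promoter sequences are RefSeq's.

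Genes named are the 15 largest rises and 15 largest falls among called genes whose groups do not overlap (predicted genes, clone names, receptor clusters and small RNAs passed over), the 5 smallest p-values, chosen anchor genes, the 4 called members with the smallest p in each role of a list, and Ahnak. The 36 lists hold 822 genes, 766 of them measured. The members and lists were chosen with earlier results of these data known.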

Additional observations from a re-analysis of the deposited data

Results flagged for a closer look

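Ppfibp2 is given again because its diet effect differed between the genotypes in the fitted interaction, by 1.12 ± 0.11 on the log2 scale (WT minus KO, limma adjusted p = 0.014). All 3 WT HFD arrays were above all 3 WT chow arrays. The call was lost in 5 of the 12 fits that left out 1 array, in which the adjusted p was 0.066 to 0.083, and with the replicate block (adjusted p = 0.068). Over the 12 fits the difference ranged from 1.07 to 1.19.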

How the results depend on the processing

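In the other settings, 4692 genes were called after quantile normalization, 4893 after median centring, 4819 with the mean of a gene's rows and 4809 with a trended, robust prior. The centred arrays gave 3366 rises and 1527 falls. Array weights, whose estimation stopped before its tolerance was reached, gave 9985 calls (4432 rises, 5553 falls) and 2819 for the interaction. With the 6 WT arrays alone 3372 were called (1564 rises, 1808 falls). Testing the 9968 genes above the median mean level gave 85 calls for the interaction, and testing every row gave 2. Leaving out 1 array at a time gave 3072 to 5285 calls, 1567 to 2593 rises, 1505 to 2692 falls and 0 to 2060 interaction calls.

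No sign of pairing by replicate number was seen in the WT arrays. The deviations of same-numbered WT arrays correlated at -0.13, 0.05 and 0.04, within the range of -0.14 to 0.11 over all chow and HFD pairs. With 3 arrays in a group this cannot exclude a pairing, and the KO arrays were not examined. A fit with a replicate block called 4306 genes and 0 for the interaction, and a block in the 6 WT arrays alone called 1691 (718 rises, 973 falls). Of 225 called genes among the 255 named by the rule, none changed sign in any setting, and 35 lost the call in at least 1 fit with an array left out. Of the named genes 34 lost it with the 6 WT arrays alone, and 93 with the block in those 6. The uncalled named genes whose sign changed in some setting numbered 14. The cause of these changes was not tested.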

Other observations

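Gene families, grouped by the letters that start their symbols and picked after their values were seen, showed shifts outside the lists, beside a background of 24.1% of genes called. Several of these families are named for parts of cilia. Of 31 cilia and flagella associated (Cfap) genes, 20 were called lower and none higher, with a median of -0.53, and Cfap44 fell by 2.20 on the log2 scale. The axonemal dynein heavy chains (Dnah) were lower in 8 of 15 cases and none was higher, the intraflagellar transport (Ift) genes in 6 of 14, and the Bardet-Biedl syndrome (Bbs) genes in 5 of 8. Of 28 claudins (Cldn), which seal epithelial junctions, 10 were lower and none higher, and the lowest difference was -3.04.

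The leukocyte receptors of the Cd300 family were higher in 5 of 8 cases and lower in 1, with Cd300c2 at 2.80. The Toll-like receptors were higher in 7 of 10 and lower in 1. Coenzyme Q synthesis genes (Coq) were lower in 8 of 11 cases and higher in none. Among ribosomal protein genes, none of 36 Rpl genes was called with limma (3 higher and 2 lower at an unadjusted p under 0.05), with differences from -0.23 to 0.25, and 2 of 31 Rps genes were, 1 in each direction.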
